A study of Rattus norvegicus with 16 samples.

Results

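Nuclear genes for subunits of respiratory complexes II, III, IV and V were followed in the rat carotid body. The cells were glomus cells and neuroblasts, with and without 3 days of hypoxia. Members were taken by symbol from the array annotation. They are the Sdha to Sdhd genes, Cyc1, genes whose symbol begins with Uqcr, the Cox5, Cox6 and Cox7 subunit genes, Cox8c, and genes whose symbol begins with Atp5. Only probes that name a single gene were used, and of several probes for a gene the brightest, by its mean over the 16 arrays, stood for it. The rule found 48 genes among the 18166 genes named by single-gene probes. Subunits without such a probe are not among them. Complex II had 4, complex III 10, complex IV 14 and complex V, the ATP synthase, 20. Of the 48 genes, 10 carry symbols of pseudogenes or gene copies, such as Uqcr10-ps1 and Atp5mc1l1. Their probes may share sequence with the parent transcript, so their values are uncertain as to source.

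RNA came from Wistar rats of 9 to 11 weeks. The carotid bodies of both sides were mixed, dispersed with enzymes, and sorted on staining with the HNK-1 antibody into glomus cells (HNK-1 negative) and neuroblasts (HNK-1 positive). The rats lived either in ambient air or for 3 days in a hypoxic chamber, whose oxygen level the labels do not give. The 4 groups of 4 Affymetrix arrays were normoxic glomus cells, hypoxic glomus cells, normoxic neuroblasts and hypoxic neuroblasts, each array from 500 pg of total RNA. Whether a group's 4 samples were taken from different animals, and how many animals were mixed, is not in the labels, so every p-value measures only the spread between samples. A sort by the absence of HNK-1 can keep other HNK-1 negative cells.

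The respiratory chain passes electrons from fuels to oxygen and pumps protons across the inner mitochondrial membrane. Complex II (succinate dehydrogenase) also belongs to the citric acid cycle. Complex III moves electrons from coenzyme Q to cytochrome c, complex IV (cytochrome c oxidase) passes them to oxygen, and complex V uses the returning protons to make ATP. Glomus cells are the chemoreceptors that sense low arterial oxygen, and their mitochondria are held to take part in that sensing. Neuroblasts are immature cells of the carotid body that mature into glomus cells when hypoxia lasts.

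The promoters of 4 members are shown because these genes carry the main contrast in the data. Uqcrq and Atp5me had the largest neuroblast differences of complexes III and V, while Sdha and Atp5f1b were on the lower side after hypoxia. Each line is the 250 bases before the annotated start in RefSeq, build GRCr8, 5′ to 3′ on the strand of the gene. The windows are chr10:38089979-38090228 (minus strand), chr14:1464610-1464859 (plus strand), chr1:30764303-30764552 (plus strand) and chr7:1099808-1100057 (plus strand). Capitals mark matches to the motifs named after the sequences.
Uqcrq: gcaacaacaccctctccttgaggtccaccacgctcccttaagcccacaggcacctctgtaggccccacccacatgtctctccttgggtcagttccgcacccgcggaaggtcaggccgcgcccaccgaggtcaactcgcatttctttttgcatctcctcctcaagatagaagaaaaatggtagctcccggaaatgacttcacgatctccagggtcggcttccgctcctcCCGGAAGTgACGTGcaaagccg
Atp5me: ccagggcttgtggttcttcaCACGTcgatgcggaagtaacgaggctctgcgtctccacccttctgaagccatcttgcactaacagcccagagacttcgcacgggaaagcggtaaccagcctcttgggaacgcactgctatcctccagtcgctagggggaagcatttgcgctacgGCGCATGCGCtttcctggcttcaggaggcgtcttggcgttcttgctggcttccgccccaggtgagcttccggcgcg
Sdha: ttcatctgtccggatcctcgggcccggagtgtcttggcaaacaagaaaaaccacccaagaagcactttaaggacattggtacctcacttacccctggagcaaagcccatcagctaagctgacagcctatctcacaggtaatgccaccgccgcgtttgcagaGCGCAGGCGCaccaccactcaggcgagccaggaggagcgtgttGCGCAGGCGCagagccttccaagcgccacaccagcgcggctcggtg
Atp5f1b: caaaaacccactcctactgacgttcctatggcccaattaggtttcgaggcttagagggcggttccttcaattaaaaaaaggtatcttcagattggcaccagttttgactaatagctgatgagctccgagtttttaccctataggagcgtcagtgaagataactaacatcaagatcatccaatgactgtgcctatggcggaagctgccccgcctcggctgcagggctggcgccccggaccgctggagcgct

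The search used 4 motifs on both strands: the NRF1 motif, the GABP (NRF2) motif CCGGAAGT, the core ACGTG bound by hypoxia-inducible factors, and the YY1 motif AAGATGGCG. NRF1, GABP and YY1 are textbook regulators of nuclear genes for the respiratory chain. In Uqcrq the GABP match began 22 bases before the start and the ACGTG match 13 bases before it, with no overlap. Atp5me held an NRF1 match 76 bases and an ACGTG match, on the opposite strand, 230 bases before the start. Sdha held NRF1 matches 89 and 46 bases before the start, and in Atp5f1b these letters were not found. Promoters were matched for 36 of the 48 members. The NRF1 motif stood in 4 of the 36 (11.1%), against 3.75% of all 33469 promoters of the same length. The GABP motif also stood in 4 (11.1%), against 3.1% of all promoters. The ACGTG core stood in 8 (22.2% against 16.6%) and the YY1 motif in 1, that of Atp5pf (2.78% against 0.693%). Of the 18 matched members that rose in both cell populations, 2 held the NRF1 motif, 3 the GABP motif and 7 the ACGTG core. Of the 13 that rose in neither, the counts were 2, 1 and 1. The latter include the gene copies Uqcr11l1, Atp5mc1l2 and Atp5mgl4. Members that rose in neuroblasts alone are in neither count. In Atp5pb, Atp5mc1, Atp5mc3 and Atp5mg, which rose in both, the window held CACGTG, which reads as ACGTG on each strand. These are descriptions of letters in a window and were not tested.

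Values are log2 expression as deposited, and a difference of 1 is a doubling. The array medians over all probes lay between 4.42 and 4.64 in normoxic glomus cells, 4.71 and 4.74 in hypoxic glomus cells, 4.40 and 4.61 in normoxic neuroblasts, and 4.71 and 4.94 in hypoxic neuroblasts. The median probe was thus higher by 0.17 after hypoxia in glomus cells and by 0.25 in neuroblasts. Without the dimmer 50% of probes, which leaves 39 of the 48 members, that median was 0.02 and -0.03. The members' differences are best read beside both. The spread of values within an array (SD) ran from 2.12 to 2.20 and from 2.10 to 2.23 in the normoxic arrays, and from 2.01 to 2.08 and from 1.78 to 2.09 in the hypoxic ones. Hypoxic neuroblast replicate 1 stood apart, with an SD of 1.78 and a mean correlation with its own group of 0.914, against at least 0.949 for every other array. Values without it are given beside those results that turn on it. The marker means differed between the normoxic sorts. The mean over 13 neuroblast markers was 8.33 ± 0.19 in normoxic neuroblasts and 6.72 ± 0.11 in normoxic glomus cells. That over 13 glomus cell markers was 9.58 ± 0.14 and 10.27 ± 0.08 (SD, 4 arrays each). The hypoxic sorts lay closer, at 7.07 ± 0.24 and 6.34 ± 0.14, and at 9.45 ± 0.36 and 9.82 ± 0.07. Between the populations 9 neuroblast and 5 glomus cell markers passed in normoxia, and 2 and 0 after hypoxia (limma). The lists were chosen with earlier results of these data known, so they are no independent check of the sorts.

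After hypoxia transcripts of small complex III subunits and of most membrane and stalk subunits of complex V were more abundant in both populations. Part of the small subunits of complex IV were also higher in both. Sdha and the F1 head genes of ATP synthase did not rise. In neuroblasts they passed as lower, though not under every setting. In glomus cells 23 of 48 members rose and none fell (limma, Benjamini-Hochberg adjusted over all 30429 probes, adjusted p under 0.05). Over all probes 18.9% passed in this comparison, 9.37% of all upward and 9.5% of all downward. At an unadjusted limma p under 0.05 stood 30 members and 9637 probes, and 4 of these members were lower: Sdha, Atp5f1a, Atp5f1b and Atp5mgl3. The members' median difference was 0.60, or 1.52-fold, beside 0.17 over all probes, with single differences from -0.73 to 1.67. In neuroblasts 31 of 48 rose and 3 fell, where 32.1% of all probes passed, 18.4% upward and 13.7% downward. The median member difference was 0.76, or 1.70-fold, beside 0.25 over all probes, with a range from -0.94 to 2.22. The 3 members that fell were Sdha, Atp5f1a and Atp5f1b. Without hypoxic neuroblast replicate 1 only 1 of them, Atp5f1b, fell in neuroblasts. With only the arrays of the comparison, or at an adjusted p under 0.01, the count of fallen members there was 0. Among the 39 members left without the dimmer 50% of probes, 22 rose and 2 fell in glomus cells (15.4% and 20.5% of those probes). In neuroblasts 28 of the 39 rose and 3 fell (20.7% and 27.8%).

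Hypoxic and normoxic arrays did not overlap for many members. In glomus cells all 4 hypoxic arrays lay above all 4 normoxic arrays for 24 members, and below them for 3 (15.2% and 11.3% of all probes). In neuroblasts they lay above for 28 members and below for none (16.3% and 11.6% of all probes). With each array centred on its own median, 15 members rose and 3 fell in glomus cells, where 4.5% of all probes passed upward and 12.4% downward. In neuroblasts 22 then rose and 5 fell, beside 6% and 18% of all probes. The median differences were then 0.39 and 0.48, beside -0.04 and -0.03 over all probes. The glomus calls lost on centring were those of Sdhd, Uqcr11, Uqcr10-ps1, Cox5b, Cox6a2, Atp5me, Atp5mg and Atp5mk. In neuroblasts they were those of Uqcr11, Cox6a1, Cox6b1, Cox6c, Cox7c, Cox6a2, Cox8c, Atp5mc3 and Atp5mgl1. With quantile normalization 21 rose and 4 fell in glomus cells (7.28% and 8.18% of all probes), and 27 rose and 3 fell in neuroblasts (10.8% and 12.2%). The share of upward calls among all calls therefore depends on the scaling, and counts of fallen members most of all.

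**Figure D1:**
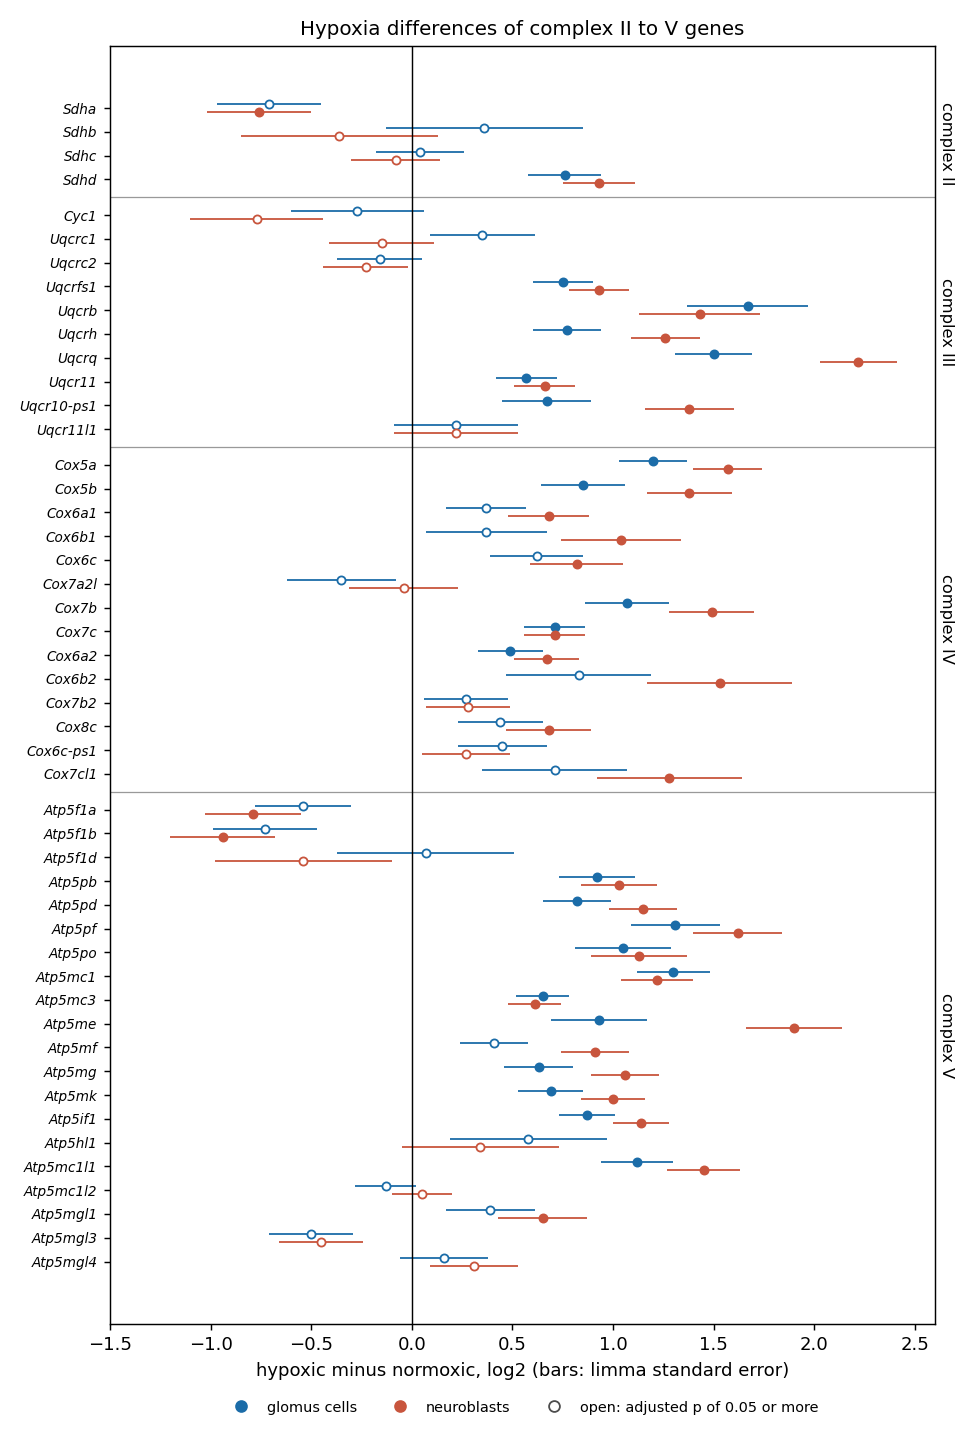
Difference between hypoxic and normoxic arrays (log2, horizontal axis) for each of the 48 genes, in glomus cells and in neuroblasts, with limma standard errors as bars and the genes grouped by complex. Most points lie to the right of 0, from -0.73 to 1.67 in glomus cells and from -0.94 to 2.22 in neuroblasts, while Sdha, Atp5f1a and Atp5f1b lie to the left.

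Complex II has a catalytic pair, the flavoprotein Sdha and the iron-sulfur protein Sdhb, held in the membrane by Sdhc and Sdhd. Sdha (probe 17611272) read 8.86, 9.38, 9.45 and 9.34 in normoxic glomus cells and 8.20, 8.65, 8.61 and 8.73 after hypoxia. In neuroblasts it read 8.99, 9.27, 8.87 and 9.02 in normoxia and 7.48, 8.0, 8.62 and 9.01 after hypoxia. The glomus groups did not overlap, yet the difference of -0.71 ± 0.26 (SE) missed the threshold (limma adjusted p = 0.0668). In neuroblasts the groups overlapped in 1 hypoxic array, and Sdha fell by 0.76 ± 0.26 (limma adjusted p = 0.0345), to 0.590 of the normoxic level. That call was lost when any of 5 neuroblast arrays was left out: normoxic replicate 1 (limma adjusted p = 0.0541), 2 (0.0815) or 4 (0.0636), or hypoxic replicate 1 (0.114) or 2 (0.0815). Without hypoxic replicate 1 the difference was -0.49, and with quantile normalization it was -0.58 and missed the threshold (limma adjusted p = 0.0546). The glomus difference passed without normoxic glomus replicate 1 (limma adjusted p = 0.0448), or without hypoxic neuroblast replicate 1 (0.0197) or 4 (0.0337), which enter only through the shared spread. It also passed with centred arrays (-0.93, limma adjusted p = 0.0354) and with quantile normalization (-0.65, limma adjusted p = 0.0414).

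Of the membrane anchors, Sdhd rose in both populations. Sdhd (probe 17852281) read 7.21, 7.60, 7.18 and 7.25 in normoxic glomus cells and 8.21, 8.02, 7.97 and 8.08 after hypoxia, a rise of 0.76 ± 0.18 (limma adjusted p = 0.00565). In neuroblasts it went from 6.58, 7.14, 7.42 and 7.20 to 7.83, 8.02, 8.10 and 8.12, a rise of 0.93 ± 0.18 (limma adjusted p = 0.000765). All hypoxic arrays lay above all normoxic arrays in each population. With centred arrays the glomus difference of Sdhd was 0.54 and missed the threshold (limma adjusted p = 0.0757). The other anchor, Sdhc, differed by 0.04 ± 0.22 in glomus cells and -0.08 ± 0.22 in neuroblasts (limma adjusted p = 0.908 and 0.794). Sdhb differed by 0.36 ± 0.49 and -0.36 ± 0.49 (limma adjusted p = 0.636 and 0.570). Its neuroblast value turned on 1 array: hypoxic replicate 1 read 6.74, and the other 3 read 10.05, 9.84 and 9.87, against 9.21 to 9.79 in normoxia. Without that array the Sdhb difference in neuroblasts was 0.43 (limma adjusted p = 0.0591). Thus 1 of 4 genes of complex II rose in glomus cells, and 1 rose and 1 fell in neuroblasts.

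In complex III the small subunits among the members rose as a block and the core subunits, apart from the Rieske protein, did not. The 4 small subunits Uqcrb, Uqcrh, Uqcrq and Uqcr11 rose in both populations, with medians of 1.14 and 1.34. Uqcr10 was present only as the copy Uqcr10-ps1. Uqcrq, a small subunit that sits against cytochrome b, had the smallest p among the members in each hypoxia comparison. Its probe (17656084) read 8.45, 8.40, 8.22 and 8.50 in normoxic glomus cells and 10.27, 9.63, 9.82 and 9.87 after hypoxia. The neuroblast arrays read 7.53, 7.98, 8.16 and 8.26 in normoxia and 10.19, 9.87, 10.53 and 10.23 after hypoxia. Every hypoxic array stood well above every normoxic array in both populations. The rise was 1.5 ± 0.19 in glomus cells, or 2.84-fold, and 2.22 ± 0.19 in neuroblasts, or 4.67-fold (limma adjusted p = 5.74e-05 and 7.84e-07).

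Uqcrb, the subunit known as the ubiquinone-binding protein, had the largest glomus cell difference of all members. Its probe (17836709) read 5.16, 6.76, 6.39 and 6.49 in normoxic glomus cells and 8.25, 7.61, 7.44 and 8.18 after hypoxia. Its neuroblast values were 6.02, 6.03, 6.54 and 6.49, then 7.42, 7.56, 8.12 and 7.71. Normoxic glomus replicate 1 was the low value of its group, and no groups overlapped. The rises were 1.67 ± 0.30 and 1.43 ± 0.30 (limma adjusted p = 0.000756 and 0.00154).

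Uqcrh is the hinge protein that links cytochrome c1 with cytochrome c. Its probe (17801167) read 9.61, 10.07, 9.77 and 10.02 in normoxic glomus cells and 10.76, 10.60, 10.55 and 10.65 after hypoxia. The neuroblast values were 9.27, 9.66, 9.67 and 9.77, then 11.03, 10.5, 11.00 and 10.86. The rises were 0.77 ± 0.17 and 1.26 ± 0.17 (limma adjusted p = 0.00368 and 3.58e-05), again with no overlap of groups. Uqcr11 rose by 0.57 ± 0.15 and 0.66 ± 0.15 (limma adjusted p = 0.0144 and 0.00381). Its glomus call was lost without normoxic glomus replicate 3 (limma adjusted p = 0.0548) or hypoxic glomus replicate 1 (0.0508), and both its calls were lost with centred arrays (0.178 and 0.116).

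Of the 4 core genes only Uqcrfs1, the Rieske iron-sulfur protein that takes the first electron from coenzyme Q, rose. Its probe (17715460) read 6.69, 6.92, 6.77 and 7.12 in normoxic glomus cells and 7.72, 7.54, 7.45 and 7.78 after hypoxia. In neuroblasts it read 6.74, 6.74, 6.93 and 6.57, then 7.70, 7.49, 7.68 and 7.84. The rises were 0.75 ± 0.15 and 0.93 ± 0.15 (limma adjusted p = 0.00222 and 0.000209), with no overlap of groups. The other core genes passed in neither population. Cyc1 encodes cytochrome c1 and Uqcrc1 and Uqcrc2 encode the large core proteins. Cyc1 differed by -0.27 ± 0.33 and -0.77 ± 0.33 (limma adjusted p = 0.601 and 0.0818). In hypoxic neuroblasts it read 7.52 in replicate 1 and 9.26, 9.12 and 9.73 in the others, and its neuroblast difference was -0.31 without replicate 1 (limma adjusted p = 0.271). Without replicate 4 it was -1.04 and passed (limma adjusted p = 0.0205), as it did with centred arrays (-1.05, 0.0492). Uqcrc1 differed by 0.35 and -0.15, and Uqcrc2 by -0.16 and -0.23 (lowest limma adjusted p = 0.375). Hypoxic neuroblast replicate 1 set the sign for Uqcrc1 in neuroblasts: without it the differences of Uqcrc1 and Uqcrc2 were 0.17 and -0.05 (limma adjusted p = 0.499 and 0.875).

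In complex IV the nuclear subunits that surround the mitochondrially encoded core were in part higher after hypoxia. Of the 8 widely expressed small subunits among the members, 4 rose in glomus cells and 7 in neuroblasts, with medians of 0.67 and 0.93. With centred arrays 3 of the 8 rose in each population, with medians of 0.45 and 0.65. Cox5a, a matrix-side subunit, had the smallest p of the complex. Its probe (17844516) read 10.18, 10.35, 9.93 and 10.02 in normoxic glomus cells and 11.40, 11.36, 11.31 and 11.20 after hypoxia. The neuroblast arrays read 9.93, 9.73, 10.23 and 9.97, then 11.51, 11.24, 11.88 and 11.52. All hypoxic arrays lay above all normoxic arrays in both. The rises were 1.20 ± 0.17 and 1.57 ± 0.17, or 2.29-fold and 2.97-fold (limma adjusted p = 0.000106 and 4.09e-06). Both other Cox5a probes, which hold the same values in all 16 arrays, rose by 1.42 and 1.88.

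Cox5b, the zinc-binding subunit, rose by 0.85 ± 0.21 and 1.38 ± 0.21 (limma adjusted p = 0.00882 and 0.000124). Its probe (17858443) read 8.03, 8.67, 8.11 and 8.56, then 9.43, 9.31, 8.83 and 9.20 in glomus cells. Its neuroblast values were 7.39, 7.90, 8.10 and 7.81, then 9.13, 8.78, 9.51 and 9.28. The groups did not overlap in either population. Centred on the array medians, the glomus difference of Cox5b was 0.63 and missed the threshold (limma adjusted p = 0.0749).

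Cox7b and Cox7c, small subunits that each cross the membrane once, rose in both populations. Cox7b (probe 17873457) read 9.97, 10.70, 10.52 and 10.61 in normoxic glomus cells and 11.63, 11.60, 11.36 and 11.50 after hypoxia. In neuroblasts it read 9.83, 10.18, 10.64 and 10.02, then 12.16, 11.48, 11.51 and 11.48. Hypoxic neuroblast replicate 1, which was low in Sdhb and Cyc1, was here the highest array of its group. The rises of Cox7b were 1.07 ± 0.21 and 1.49 ± 0.21 (limma adjusted p = 0.00182 and 6.01e-05). Cox7c (probe 17744063) read 9.77, 10.14, 10.11 and 10.13, then 10.83, 10.69, 10.64 and 10.85 in glomus cells. The neuroblast arrays read 9.95, 10.10, 10.12 and 9.86, then 10.89, 10.45, 10.61 and 10.93. It rose by 0.71 ± 0.15 in each population (limma adjusted p = 0.00347 and 0.00231), with no overlap of groups. With centred arrays the neuroblast difference was 0.43 and missed the threshold (limma adjusted p = 0.0726).

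Cox6a1, Cox6b1 and Cox6c passed in neuroblasts and missed the threshold in glomus cells. Their neuroblast rises were 0.68 ± 0.20, 1.04 ± 0.30 and 0.82 ± 0.23 (limma adjusted p = 0.0141, 0.0158 and 0.0142), and their glomus differences were 0.37 ± 0.20, 0.37 ± 0.30 and 0.62 ± 0.23 (limma adjusted p = 0.202, 0.423 and 0.0723). None of the 3 differed between the populations' responses by the interaction term (lowest limma adjusted p = 0.828). With centred arrays their neuroblast differences were 0.40, 0.76 and 0.53, and none passed (limma adjusted p = 0.209, 0.0881 and 0.0687). The neuroblast call of Cox6b1 was lost without normoxic replicate 2 (limma adjusted p = 0.0527) or hypoxic replicate 1 (0.0537), and that of Cox6c without normoxic replicate 4 (0.0537). The glomus difference of Cox6c passed without hypoxic neuroblast replicate 1 (limma adjusted p = 0.0169). The other Cox6b1 probe, dimmer than the one used, rose in both populations, by 1.15 ± 0.26 and 1.24 ± 0.26 (limma adjusted p = 0.00465 and 0.00178), so the probes of this gene disagree in glomus cells. Cox7a2l, which bridges complexes III and IV in supercomplexes, differed by -0.35 ± 0.27 and -0.04 ± 0.27 (limma adjusted p = 0.404 and 0.925). Without hypoxic neuroblast replicate 1 its neuroblast difference was 0.22 (limma adjusted p = 0.533).

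Complex IV also has isoforms of restricted tissues, and 4 were measured: Cox6a2 of heart and skeletal muscle, and Cox6b2, Cox7b2 and Cox8c, known from testis. Cox6a2 rose in both populations, by 0.49 ± 0.16 and 0.67 ± 0.16 (limma adjusted p = 0.0399 and 0.00465). Its glomus call was lost without normoxic glomus replicate 2, 3 or 4 or hypoxic glomus replicate 1, 2 or 3 (limma adjusted p between 0.0597 and 0.127), and both its calls were lost with centred arrays (0.282 and 0.0817). Its probe mean of 4.64, like those of Cox7b2 (2.92) and Cox8c (3.60), lay below 4.67, the median of all probes' means. Cox6b2 rose in neuroblasts by 1.53 ± 0.36 (limma adjusted p = 0.00386), where hypoxic arrays read 6.28, 6.11, 6.96 and 7.43 and normoxic arrays 4.57, 6.21, 5.15 and 4.74. In glomus cells its difference was 0.83 ± 0.36 (limma adjusted p = 0.117). Cox8c rose in neuroblasts by 0.68 ± 0.21 (limma adjusted p = 0.0212), a call lost without normoxic replicate 2 (0.0546) or hypoxic replicate 1 (0.0607) or 3 (0.0612), or with centred arrays (0.174). Cox7b2 passed in neither (limma adjusted p = 0.408 and 0.314).

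The paralogues were set side by side. Cox6a1 and Cox6a2 differed by 0.68 and 0.67 in neuroblasts, Cox6b1 and Cox6b2 by 1.04 and 1.53, and Cox7b and Cox7b2 by 1.49 and 0.28. Cox7b2 did not pass, and its difference was -0.01 with centred arrays and -0.05 with quantile normalization. In the c ring of complex V the paralogues Atp5mc1 and Atp5mc3 encode the same mature protein, and their neuroblast differences were 1.22 and 0.61.

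**Figure D2:**
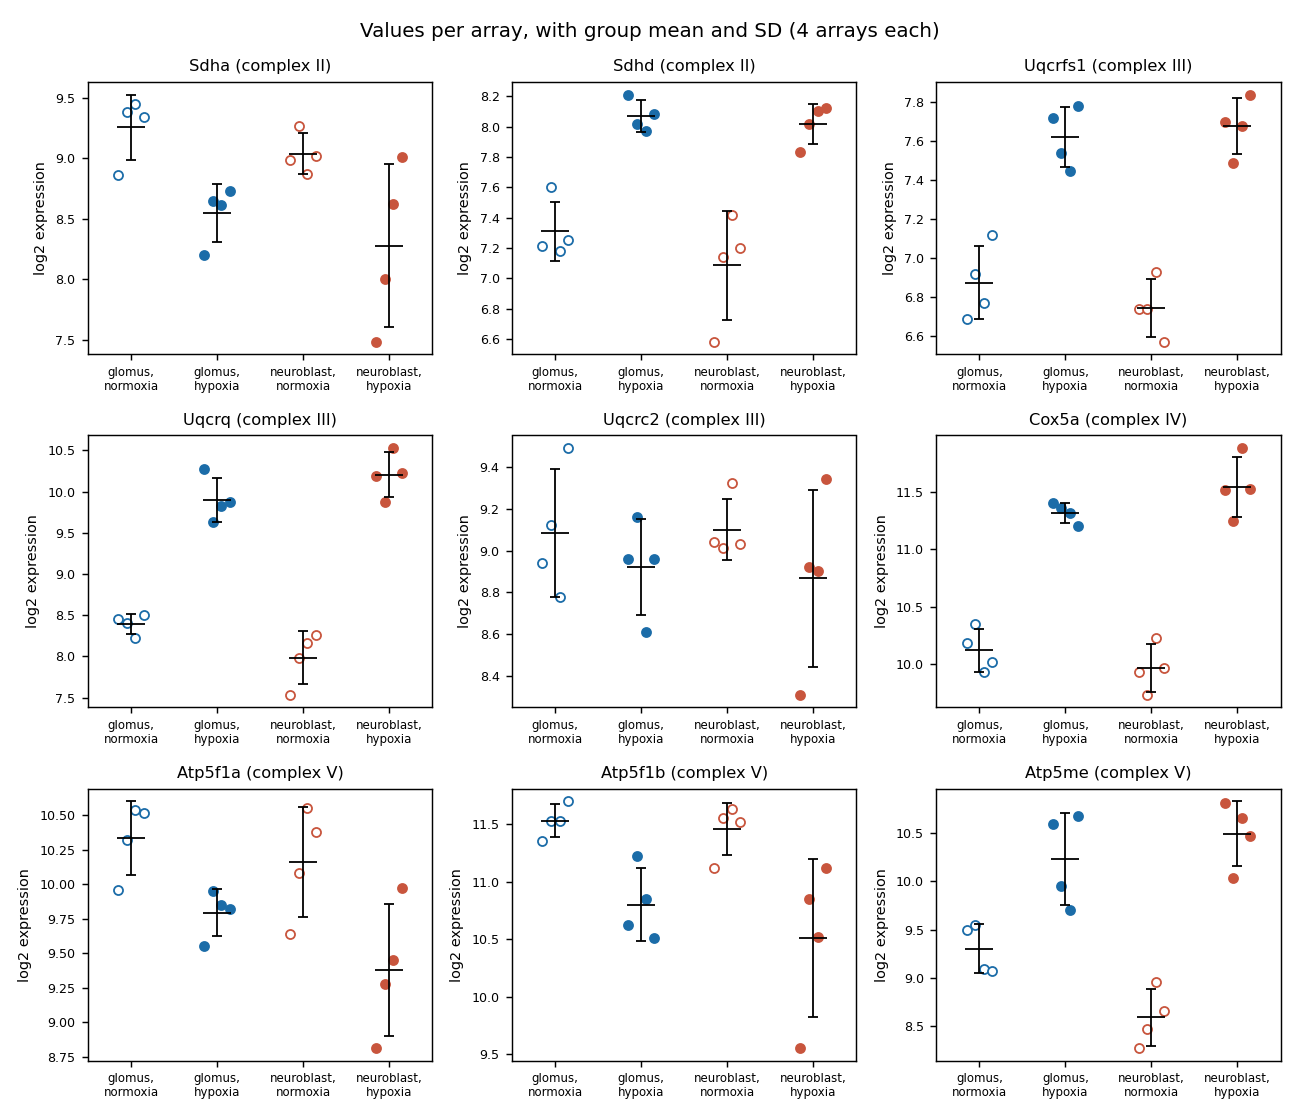
Values per array (log2 expression, vertical axis) of Sdha, Sdhd, Uqcrfs1, Uqcrq, Uqcrc2, Cox5a, Atp5f1a, Atp5f1b and Atp5me in the 4 groups, with the group mean and SD of 4 arrays (each panel has its own axis, which does not start at 0). Hypoxic arrays of Uqcrq lie between 9.63 and 10.53, above all normoxic arrays (7.53 to 8.50), whereas hypoxic arrays of Sdha (7.48 to 9.01) lie low.

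In complex V the measured parts of the enzyme had unlike median differences, which were not tested against each other. The F1 head turns over ATP, a central stalk rotates inside it, a peripheral stalk holds it still, and a ring of c subunits in the membrane is driven round by protons. Among the 10 genes of the peripheral stalk, c ring and other membrane subunits, 9 rose in glomus cells and 10 in neuroblasts, with median differences of 0.87 and 1.10. The 2 genes of the F1 head, Atp5f1a (alpha subunit) and Atp5f1b (beta subunit, with the catalytic sites), had median differences of -0.63 and -0.86. Over the whole complex 11 of 20 genes rose in glomus cells, and 13 rose and 2 fell in neuroblasts.

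Atp5f1b (probe 17825486) read 11.35, 11.53, 11.53 and 11.70 in normoxic glomus cells and 10.62, 11.22, 10.85 and 10.51 after hypoxia. Its neuroblast values were 11.12, 11.55, 11.63 and 11.52, then 9.55, 10.85, 10.52 and 11.12. The glomus groups did not overlap, and in neuroblasts the highest hypoxic array reached only the lowest normoxic one. The difference in glomus cells was -0.73 ± 0.26 and missed the threshold (limma adjusted p = 0.0651). In neuroblasts it fell by 0.94 ± 0.26 (limma adjusted p = 0.0125), to 0.519 of the normoxic level, and by 0.62 without hypoxic replicate 1 (limma adjusted p = 0.0277). The glomus difference passed without hypoxic glomus replicate 2 (limma adjusted p = 0.0451) or hypoxic neuroblast replicate 1 (0.00826) or 4 (0.0451), and also with centred arrays (-0.94, limma adjusted p = 0.0393) and with quantile normalization (-0.90, limma adjusted p = 0.0102).

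Atp5f1a (probe 17724431) read 9.96, 10.32, 10.54 and 10.52 in normoxic glomus cells and 9.55, 9.95, 9.85 and 9.82 after hypoxia. In neuroblasts it read 9.64, 10.08, 10.55 and 10.38, then 8.81, 9.28, 9.45 and 9.97. The highest hypoxic glomus array (9.95) lay just below the lowest normoxic one (9.96), and the neuroblast groups overlapped. The glomus difference was -0.54 ± 0.24 (limma adjusted p = 0.128). In neuroblasts Atp5f1a fell by 0.79 ± 0.24 (limma adjusted p = 0.0196). That call was lost without normoxic neuroblast replicate 3 (limma adjusted p = 0.0679) or 4 (0.0571) or hypoxic neuroblast replicate 1 (0.0638). Atp5f1d, the delta subunit of the central stalk, differed by 0.07 ± 0.44 and -0.54 ± 0.44 (limma adjusted p = 0.932 and 0.334). Its hypoxic neuroblast replicate 1 read 5.86 and the other 3 read 8.67, 8.33 and 8.72. Without that array the Atp5f1d difference was 0.14.

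All 4 genes of the peripheral stalk rose in both populations. Atp5pf (coupling factor 6, probe 17667579) read 8.68, 9.23, 9.12 and 9.59, then 10.60, 10.59, 10.24 and 10.45 in glomus cells. The neuroblast arrays read 8.42, 9.16, 9.26 and 8.96, then 10.92, 10.40, 10.53 and 10.42. The hypoxic arrays were high throughout and no groups overlapped. The rises were 1.31 ± 0.22 and 1.62 ± 0.22 (limma adjusted p = 0.000409 and 3.23e-05). Atp5pb, Atp5pd and Atp5po (subunits b, d and OSCP, which ties the stalk to the head) rose by 0.92, 0.82 and 1.05 in glomus cells and by 1.03, 1.15 and 1.13 in neuroblasts (highest limma adjusted p = 0.00495).

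Both c ring genes among the members rose. Their paralogue Atp5mc2 was not among the members. Atp5mc1 (probe 17660414) read 10.17, 10.41, 10.01 and 10.26 in normoxic glomus cells and 11.55, 11.51, 11.48 and 11.50 after hypoxia. Its neuroblast values were 9.97, 10.12, 10.50 and 9.93, then 10.99, 11.23, 11.68 and 11.50. The 4 hypoxic glomus arrays differed among themselves by less than 0.1 and lay clear of the normoxic arrays. The rises were 1.30 ± 0.18 and 1.22 ± 0.18 (limma adjusted p = 8.44e-05 and 6.45e-05). Atp5mc3 rose by 0.65 ± 0.13 and 0.61 ± 0.13 (limma adjusted p = 0.00183 and 0.00193), and its neuroblast difference was 0.32 with centred arrays (limma adjusted p = 0.0911).

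Of the other membrane subunits, Atp5me (subunit e, which takes part in the dimer of the enzyme) had the largest neuroblast difference of complex V. Its probe (17687945) read 9.50, 9.55, 9.09 and 9.07 in normoxic glomus cells and 10.59, 9.95, 9.70 and 10.68 after hypoxia. In neuroblasts it read 8.27, 8.47, 8.96 and 8.66, then 10.81, 10.03, 10.66 and 10.47. Normoxic neuroblasts were the lowest group and did not overlap with normoxic glomus cells. The rises were 0.93 ± 0.24 and 1.90 ± 0.24, or 1.90-fold and 3.74-fold (limma adjusted p = 0.0112 and 1.94e-05). With centred arrays the glomus rise was 0.71 and missed the threshold (limma adjusted p = 0.0520). Atp5mg and Atp5mk rose in both populations, by 0.63 and 0.69 in glomus cells and by 1.06 and 1.00 in neuroblasts. The glomus call of Atp5mg was lost without hypoxic glomus replicate 1 (limma adjusted p = 0.0605). With centred arrays neither Atp5mg nor Atp5mk passed in glomus cells (0.130 and 0.0617). Atp5mf passed in neuroblasts (0.91 ± 0.17, limma adjusted p = 0.000842) and not in glomus cells (0.41 ± 0.17, limma adjusted p = 0.110).

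Atp5if1, the inhibitor that binds the F1 head and blocks its reverse action as an ATPase, rose in both populations. Its probe (17802838) read 10.24, 10.36, 10.14 and 10.30 in normoxic glomus cells and 11.12, 11.16, 11.04 and 11.18 after hypoxia. The neuroblast arrays read 10.01, 10.35, 10.24 and 9.89, then 11.38, 11.17, 11.18 and 11.32. The groups were tight and apart in both populations, with rises of 0.87 ± 0.14 and 1.14 ± 0.14 (limma adjusted p = 0.000421 and 1.74e-05).

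**Figure D3:**
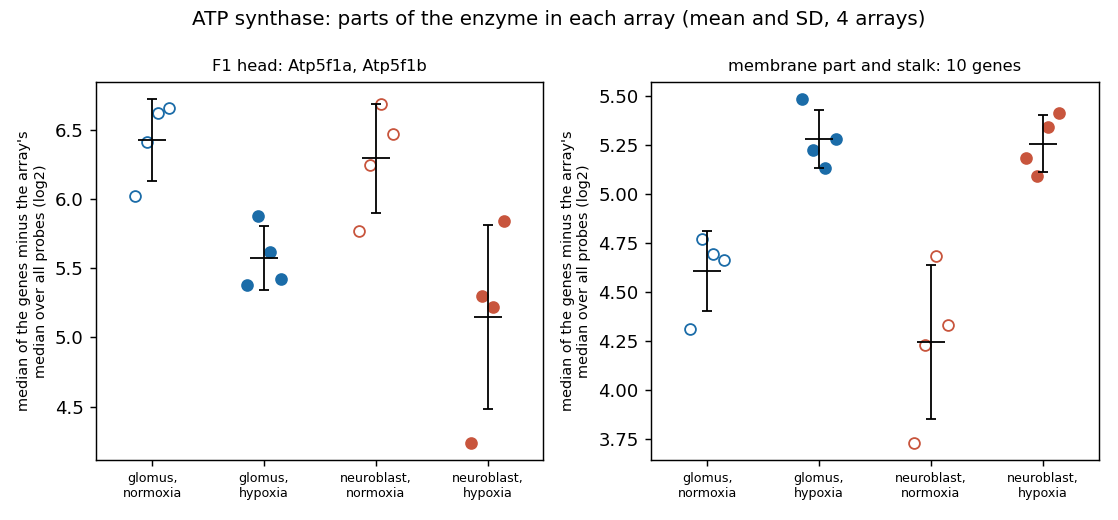
Median over the genes of 2 parts of ATP synthase, less the array's own median over all probes (log2, vertical axis), per array in the 4 groups, with mean and SD of 4 arrays. The 2 F1 head genes go from 6.43 to 5.58 in glomus cells and from 6.30 to 5.15 in neuroblasts, while the 10 genes of the membrane part and stalk go from 4.61 to 5.28 and from 4.24 to 5.26. The vertical axes do not start at 0.

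The 10 gene copies gave fewer calls, 2 in glomus cells and 4 in neuroblasts, all upward. Atp5mc1l1, a copy of the c ring gene, read 7.57, 7.81, 7.47 and 7.47, then 8.77, 8.69, 8.55 and 8.78 in glomus cells (probe 17623545). Its neuroblast values were 7.28, 7.34, 7.56 and 6.86, then 8.65, 8.32, 8.98 and 8.89. Its rises of 1.12 ± 0.18 and 1.45 ± 0.18 (limma adjusted p = 0.000363 and 1.71e-05) were close in size to those of Atp5mc1. Uqcr10-ps1, named after a small subunit of complex III, read 4.51, 4.39, 4.34 and 4.34, then 5.32, 4.93, 4.91 and 5.10 in glomus cells (probe 17704975). In neuroblasts it read 3.05, 3.99, 4.18 and 3.73, then 5.17, 4.68, 5.24 and 5.39. It rose by 0.67 ± 0.22 and 1.38 ± 0.22 (limma adjusted p = 0.0396 and 0.000151). Its glomus call was lost when any 1 of the 8 glomus arrays was left out (limma adjusted p between 0.0503 and 0.113), with centred arrays (0.237) or with quantile normalization (0.208). Cox7cl1 rose in neuroblasts by 1.28 ± 0.36 (limma adjusted p = 0.0126), with hypoxic replicate 1 at 6.95 and the other hypoxic arrays at 4.48, 5.48 and 5.26. Without that array its difference was 0.81 (limma adjusted p = 0.0225), and its glomus difference of 0.71 passed (0.0306). Atp5mgl1 rose in neuroblasts by 0.65 ± 0.22 (limma adjusted p = 0.0312), a call lost without normoxic neuroblast replicate 1, 2 or 3 or hypoxic neuroblast replicate 1 or 3 (limma adjusted p between 0.0505 and 0.0909), or with centred arrays (0.2). Without the copies, 21 of 38 genes rose in glomus cells, and 27 rose and 3 fell in neuroblasts.

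The hypoxia differences of the populations come from different arrays, but their tests share one estimate of the spread over all 16, so the lists of calls are not fully separate. Leaving out hypoxic neuroblast replicate 1 changed the glomus calls from 23 to 27 members, and from 18.9% to 23.8% of all probes. All 23 members that rose in glomus cells also rose in neuroblasts, which is 100% of the first list and 74.2% of the second. Over all probes 2028 rose in both (6.66% of all), of 2852 that rose in glomus cells and 5596 that rose in neuroblasts. A further 8 passed in neuroblasts alone. The difference was the larger in neuroblasts for 32 of 48 members. The median over all probes was also larger there, at 0.25 against 0.17, and the share of all probes was not counted. Across the 48 members the glomus and neuroblast differences had a correlation of 0.905, and across all probes 0.807. Genes of 1 array are not independent, and both values are descriptions.

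**Figure D4:**
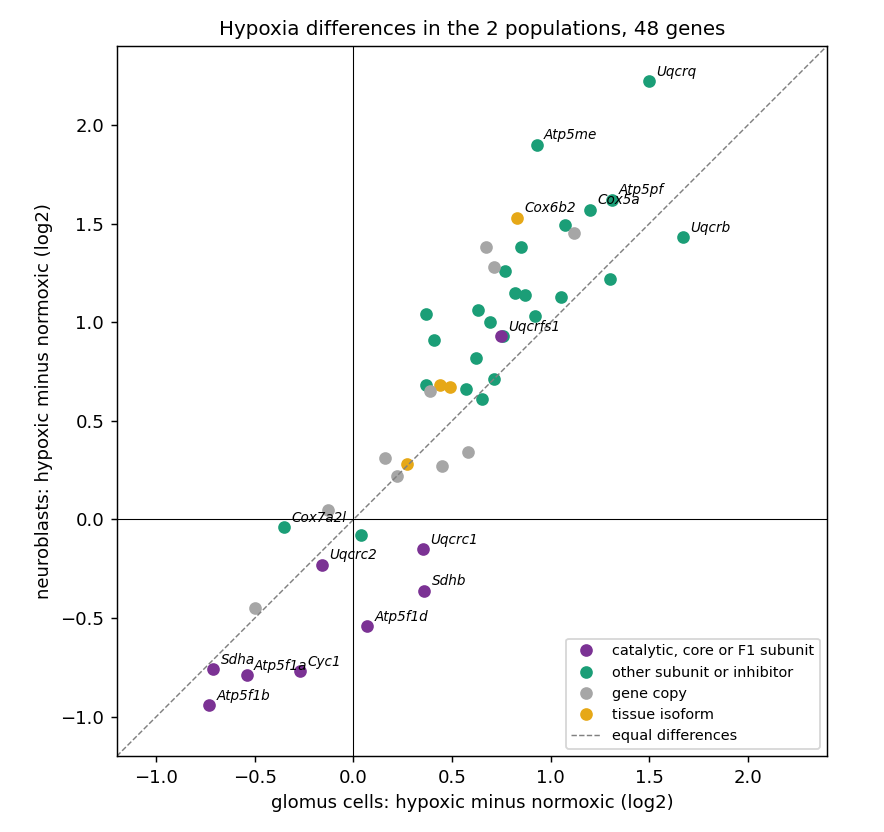
Hypoxia difference in glomus cells (horizontal axis, log2) against that in neuroblasts (vertical axis, log2) for the 48 genes. Colours mark the role of a gene: catalytic, core or F1 subunit, gene copy, tissue isoform, or other subunit or inhibitor. The points follow the diagonal (correlation 0.905), with Uqcrq (1.5 and 2.22) and Atp5me (0.93 and 1.90) above it and Atp5f1b (-0.73 and -0.94) at the lower left.

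No member passed the test of the difference between the populations' responses (limma, the interaction term), where 0.0789% of all probes passed. At an unadjusted limma p under 0.05 stood 3 of 48 members and 2015 of 30429 probes, a like share. Those 3 were Atp5me, Uqcrq and Uqcr10-ps1, whose differences were larger in neuroblasts by 0.98 ± 0.34, 0.72 ± 0.27 and 0.71 ± 0.31 (limma adjusted p = 0.561, 0.640 and 0.727). The 8 members that passed in neuroblasts alone are therefore not shown to respond in neuroblasts only. The median interaction over the members was 0.18, beside 0.05 over all probes.

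The populations themselves were also compared. In normoxia 0 of 48 members passed (limma), where 1.82% of all probes did. An unadjusted limma p under 0.05 was found for 6 of them and for 2849 of 30429 probes. The members' median difference, neuroblasts minus glomus cells, was -0.16, beside -0.01 over all probes, and 38 of 48 differences were below 0. For 4 members, Atp5me, Atp5mf, Atp5pb and Uqcr10-ps1, every normoxic neuroblast array lay below every normoxic glomus array (4.03% of all probes). Their differences were -0.71, -0.42, -0.47 and -0.66 (lowest limma adjusted p = 0.201). After hypoxia 0 of 48 passed (limma), where 0.283% of all probes did, and the median was 0.03, beside 0.04. Here 2 members and 3389 of 30429 probes had an unadjusted limma p under 0.05. Those 2 were Cox6b2, at 1.17 ± 0.36 (limma adjusted p = 0.233), and Atp5f1d, at -0.95 ± 0.44 (limma adjusted p = 0.437). The Atp5f1d value leans on hypoxic neuroblast replicate 1, which read 5.86 where the others read 8.33 to 8.72. These comparisons share their arrays with the hypoxia comparisons, so they are not separate evidence on the members.

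Genes that work with these complexes were taken from lists chosen by function. Their counts stand beside 9.37% of all probes upward and 9.5% downward in glomus cells, and 18.4% and 13.7% in neuroblasts. Of the 3 mitochondrially encoded subunits measured, COX2 rose in both populations by 1.01 ± 0.21 and 1.31 ± 0.21, COX3 rose in neuroblasts by 0.41 ± 0.15, and COX1 differed by -0.11 and -0.27 (limma adjusted p = 0.669 and 0.177). Of 6 complex IV subunits outside the symbol rule, 3 rose in glomus cells and 2 in neuroblasts. Cox4i2, the isoform of subunit 4 tied to low oxygen, rose by 0.86 ± 0.17 and 1.78 ± 0.17 (limma adjusted p = 0.00193 and 1.73e-06). Cox8a rose by 0.60 and 0.94, and Ndufa4 rose in glomus cells by 0.80. Of the same 6 genes, 3 differed between the populations in normoxia: Cox4i2 and Ndufa4l2 were lower in neuroblasts (differences of -1.19 and -1.0) and Ndufa4 was higher (0.62) (limma adjusted p = 0.000591, 0.0168 and 0.0470). Cox4i2 and Ndufa4l2 are also in the list of glomus cell markers, so these values are not separate from the marker means. With hypoxia the main isoform Cox4i1 differed by 0.38 and 0.52 (limma adjusted p = 0.355 and 0.142).

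Assembly factors of complex III were higher too. Of 8 measured, 5 rose in each population, with medians of 1.01 and 1.12. Uqcc6 rose by 1.55 and 1.70, Uqcc5 by 1.12 and 1.76, and Uqcc2 by 1.28 and 1.35. Of 20 complex IV assembly factors, 9 rose and 1 fell in glomus cells, and 9 rose and 2 fell in neuroblasts (medians 0.54 and 0.57). The smallest p-values were those of Cmc1, Cmc2, Higd1a and the copper chaperone Cox17, which rose by 1.34, 1.46, 1.14 and 0.89 in glomus cells and by 1.99, 1.91, 1.12 and 1.59 in neuroblasts. Of 3 complex II assembly factors, Sdhaf3 rose in both populations by 1.21 and 1.32, and Sdhaf1 rose in neuroblasts by 1.08. Of 7 ATP synthase assembly factors, 3 rose in glomus cells and 2 in neuroblasts, led by Dmac2l at 1.94 and 0.98.

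Mobile carriers and general mitochondrial genes were mixed. Of 13 genes for cytochrome c and coenzyme Q, 2 rose in glomus cells, and 3 rose and 2 fell in neuroblasts, with medians of -0.07 and 0.00. Cycs, the somatic cytochrome c, rose by 0.84 and 0.76, and Coq8a fell in neuroblasts by 1.40. Among 12 regulators of mitochondrial biogenesis, 1 rose and 1 fell in glomus cells, and 1 rose and 2 fell in neuroblasts (medians -0.05 and 0.04). Gabpb1 rose by 1.32 and 1.02, its partner Gabpa fell by 0.64 and 1.04, and Nrf1 fell in neuroblasts by 0.78. Of 13 genes for the import machinery, membrane dynamics and chaperones of the organelle, 2 rose and 2 fell in glomus cells, and 4 rose and 3 fell in neuroblasts (medians 0.01 and -0.05). The import pore gene Tomm40 fell by 1.01 and 1.21 and the chaperone gene Hspa9 by 0.91 and 1.34.

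Some markers of dividing and other cells also moved with hypoxia in these sorts. Over all probes 9.37% rose and 9.5% fell in glomus cells, and 18.4% and 13.7% in neuroblasts. Marker counts near those shares do not set a cell type apart. Genes of dividing cells rose, 8 of 15 in glomus cells and 13 of 15 in neuroblasts. Their mean level was 5.23 to 5.44 in the normoxic and 6.37 to 6.92 in the hypoxic glomus arrays, and 5.08 to 5.27 and 6.96 to 7.51 in the neuroblast arrays. Neuroblast markers fell, 3 of 13 in glomus cells and 11 of 13 in neuroblasts, where their mean was 8.12 to 8.52 in normoxia and 6.73 to 7.24 after hypoxia. Of the glomus cell markers, 1 of 13 rose and 5 fell in glomus cells, and 4 rose and 6 fell in neuroblasts. Of the 15 macrophage markers 4 rose in glomus cells and none in neuroblasts (their mean was 4.87 to 6.44 in normoxic and 5.78 to 6.34 in hypoxic glomus arrays, and 4.12 to 4.56 and 4.57 to 5.05 in neuroblasts). Of 9 endothelial markers 2 rose in each population, of 10 T and NK cell markers 1 and 4, and of 8 pericyte and smooth muscle markers 1 in each. Of 11 type II and glial markers 1 rose and 1 fell in glomus cells and 3 rose in neuroblasts. Of 11 fibroblast markers 1 fell in glomus cells and 2 in neuroblasts. The fibroblast mean ran from 5.76 to 8.92 in the normoxic neuroblast arrays and from 5.66 to 7.13 in the hypoxic ones. Of 9 markers of peripheral neurons 2 fell in glomus cells, and 5 fell and 1 rose in neuroblasts. The part of these changes, and of the shift in array medians and spreads, in the members' differences was not tested. In such bulk sorts a change in the mix of cells and a change in RNA per cell cannot be told apart.

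Hypoxic neuroblast replicate 1 was low for Sdha, Sdhb, Cyc1, Uqcrc1, Atp5f1b and Atp5f1d and high for Cox7b and Cox7cl1. Without it, 28 members rose and 1 (Atp5f1b) fell in neuroblasts (14.7% and 11.9% of all probes). The median difference there was 0.77, beside 0.76 with that array. In glomus cells, whose own arrays were unchanged, 25 then rose and 2 (Sdha and Atp5f1b) fell. Over all probes 12.6% then rose and 11.2% fell in glomus cells, beside 9.37% and 9.5% with that array. The medians of the small complex III subunits and of the membrane part of ATP synthase in neuroblasts were 1.36 and 1.14 without it, and that of the F1 head was -0.61. The F1 head median in glomus cells, -0.63, does not use that array.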

How the data were processed

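RNA of 16 samples was hybridised to Affymetrix arrays, and the log2 expression values of 30429 probes were deposited by the authors in 1 table. The submitters' processing notes name the Transcriptome Analysis Console. The sources used here do not give the background correction, normalization or summarisation, and the log2 scale was inferred from the values (0.87 to 13.33). Probes were named from the platform annotation: 18511 name 1 gene, 575 several and 11343 none. Of these, 5 several-gene probes that name a gene of the rule were left out. One mean per group was fitted to all probes with limma 3.58.1 in R 4.3.3 (12 residual degrees of freedom, checked on simulated data), with p-values adjusted by Benjamini-Hochberg over every probe of a comparison and a threshold of 0.05. The number of arrays limits the precision. Array values are printed for Uqcrq, Cox5a, Sdha, Atp5f1a and Atp5f1b, for up to 3 called members with the smallest p per complex and hypoxia comparison, and for members that fell. Values of Sdhb, Cyc1, Atp5f1d, Cox6b2 and Cox7cl1 were added after they had been seen. Related lists name up to 4 called genes. The members and lists were chosen with earlier results of these data known. The 26 alternatives were scaling, dim-probe filters, variance models, array weights, a replicate block, a stricter threshold, the choice of probe, and leaving out each array. Replicate numbers did not pair the samples (24 same-number correlations of deviations, -0.105 to 0.205, 8 over 0.1). Promoter sequences came from RefSeq, build GRCr8.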

Additional observations from a re-analysis of the deposited data

Results flagged for a closer look

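In 196 sets of 4 arrays (each of the 48 members, and the members' median, in each group), the highest or lowest array was tested for its gap to the nearest other. It stood far from the other 3 in 10 of the 196 sets. That is close to the share of about 1 in 20 that chance flags, so a single flag says little. Hypoxic neuroblast replicate 1 was the array in 4 of them: Sdhb at 6.74 (others 9.84 to 10.05), Uqcrc1 at 7.93 (others 9.13 to 9.35), Atp5f1d at 5.86 (others 8.33 to 8.72) and, in the other direction, Cox7b at 12.16 (others 11.48 to 11.51). In normoxic glomus cells Sdhd read 7.60 in replicate 2 (others 7.18 to 7.25), Cox7c 9.77 in replicate 1 (others 10.11 to 10.14) and Atp5po 8.80 in replicate 2 (others 8.09 to 8.16). In hypoxic glomus cells Cox6c read 6.76 in replicate 3 (others 6.34 to 6.36) and Atp5mf 6.36 in replicate 1 (others 5.85 to 5.87). In normoxic neuroblasts Uqcrc2 read 9.32 in replicate 3 (others 9.01 to 9.04).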

How the results depend on the processing

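Under all 26 alternatives the count of called members stayed within 1.5 times its value in both hypoxia comparisons, and was 0 in the population comparisons and the interaction. Leaving out 1 array gave 19 to 27 called members in glomus cells and 29 to 35 in neuroblasts, with medians of 0.54 to 0.66 and 0.73 to 0.82. Of 23 calls in glomus cells 19 held without any 1 array, 15 with centred arrays and 21 with quantile normalization, and of 34 in neuroblasts 28, 25 and 29. Centring moved the medians from 0.60 to 0.39 and from 0.76 to 0.48. The count of fallen members was the least stable. In glomus cells it was 0, but 3 with centring, array weights, only the compared arrays or a replicate block, 4 with quantile normalization, and 2 without the dimmer 50% of probes. Without normoxic glomus replicate 1 or hypoxic glomus replicate 2 it was 1, and without hypoxic neuroblast replicate 1 or 4 it was 2. In neuroblasts it was 3, but 1 without normoxic neuroblast replicate 4 or hypoxic neuroblast replicate 1, 5 with centring, and 0 with only the compared arrays or an adjusted p under 0.01. With array weights 31 and 32 members passed (31.2% and 27.1% of all probes). With only the compared arrays 29 and 25 passed (24.4% and 20.6%). The replicate block gave 25 and 35 called members, beside 23 and 34, although the numbers did not pair the samples (in 5 of 24 same-number pairs the own number correlated best). Some differences that had not passed changed sign. When 1 array was left out, the normoxic population difference ran from -0.30 to 0 for Atp5f1a and from -0.13 to 0.04 for Atp5f1b, the hypoxic one of Atp5f1b from -0.49 to 0.03, the interaction of Atp5f1b from -0.42 to 0.10, and that of Sdha from -0.29 to 0.22. Array weights gave interactions of 0.03 for Atp5f1b and 0.27 for Sdha, and quantile normalization 0.08 for Sdha. The cause was not tested. Dim probes limit what can be said of 9 members at or below the median probe.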
